A study of Homo sapiens with 24 samples.

Results

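Cells in which both KAT2A and KAT2B were knocked down (KAT2AB_KD) were compared with cells in which KAT2B alone was knocked down (KAT2B_KD), in cultures that had not yet been taken to the differentiated stage. The comparison takes 8 of the 24 RNA sequencing libraries of the study, which were chosen by genotype and stage label: 4 KAT2AB_KD libraries, 2 at Subconfluent and 2 at Confluent, and 4 KAT2B_KD libraries, again 2 at each stage. All were made from nTERT-1, an established human keratinocyte line immortalised with telomerase, and all 8 carry the KAT2B knockdown, so the contrast is the addition of KAT2A loss to KAT2B loss. The 4 KAT2A_KD and 4 NT libraries of the same 2 stages give the matching contrast, loss of KAT2A in cells that keep KAT2B. The treatment label is keratinocyte differentiation for every library, and the stage label alone separates the cultures used here from the differentiated ones.

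The labels do not state how the knockdowns were made, whether a genotype is 1 clone, a pool or several lines, what NT stands for, or whether the libraries of a group came from separate cultures. A difference between genotypes and a difference between the cell lines that carry them therefore cannot be told apart, and p-values measure only the spread between these libraries, which may be technical. Libraries are called 1 and 2 within a group, in the order of their deposit.

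KAT2A and KAT2B (also known as GCN5 and PCAF) are closely related lysine acetyltransferases. One or the other is built into the coactivator complexes SAGA and ATAC, where it acetylates histone H3 at promoters, and the paralogs can partly replace each other. In the epidermis, keratinocytes leave the basal layer, switch on spinous and then granular genes, and end as cornified cells whose envelope is built from crosslinked precursors such as the small proline-rich proteins.

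The 8 libraries held 9872454 to 15550650 counts each. Levels are given as CPM, read counts scaled to library size with TMM factors over the 16 Subconfluent and Confluent libraries, in the order library 1, library 2. Keratinocyte markers were present throughout: the 12 listed genes (among them KRT5, KRT14 and TP63) summed to 20810 to 30650 CPM in KAT2AB_KD libraries and 19220 to 36170 CPM in KAT2B_KD libraries. Pearson's r of log2 CPM across genes was 0.979 between the KAT2AB_KD Subconfluent libraries, 0.963 between the KAT2AB_KD Confluent libraries, and 0.969 within each KAT2B_KD group. KAT2AB_KD Confluent library 2 had the lowest r within its genotype, with 0.953 and 0.963 to the Subconfluent libraries, against 0.959 to KAT2B_KD Confluent library 1. Within KAT2B_KD, r between the stages was similar, at 0.953 to 0.965. KAT2AB_KD Confluent library 1 correlated more with the Subconfluent libraries of its genotype (0.978 and 0.971) than with its own replicate. Each library was left out in turn. Where no library is named beside a called gene or a list's count over 1, leaving out any 1 of the libraries compared kept the gene past the threshold and the count within 1.5 times its value. This covers calls and counts of lists, not medians or overlaps.

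The targeted genes were read first. KAT2A was at 9.19 and 11.6 CPM at Subconfluent and 8.22 and 1.84 CPM at Confluent in KAT2AB_KD cells, against 27.1 and 28.4 CPM at Subconfluent and 41.1 and 41.9 CPM at Confluent in KAT2B_KD cells. All 4 KAT2AB_KD libraries lay below all 4 KAT2B_KD libraries, and KAT2AB_KD Confluent library 2 was the lowest of all. The log2 fold change over both stages was −2.18 ± 0.39 (SE), with an adjusted p of 0.00654 (edgeR quasi-likelihood test with stage as covariate, Benjamini-Hochberg adjusted over all genes). It was −1.39 at Subconfluent (edgeR adjusted p = 0.193) and −2.999 at Confluent (edgeR adjusted p = 0.0201), so the fall did not pass at Subconfluent alone. At Confluent it was lost without either KAT2B_KD library of that stage (edgeR adjusted p up to 0.135, without library 2). KAT2A_KD cells had 3.81, 4.55, 4.41 and 5.65 CPM in the same order, a level that 3 of the 4 KAT2AB_KD libraries exceeded.

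KAT2B was at 2.13 and 1.33 CPM at Subconfluent and 3.31 and 0.998 CPM at Confluent in KAT2AB_KD cells, against 0.166 and 1.17 CPM at Subconfluent and 0.738 and 1.38 CPM at Confluent in KAT2B_KD cells. The groups overlapped, and the difference of 1.20 on the log2 scale did not pass (edgeR adjusted p = 0.313). Both sets of values lay below those of cells with no KAT2B knockdown, which were 5.38 to 8.78 CPM in KAT2A_KD cells and 4.47 to 6.14 CPM in NT cells. KAT2B was read 117 times in the KAT2AB_KD libraries and 40 times in the KAT2B_KD libraries. Whether residual KAT2B took part in the differences described here was not tested.

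Of 14700 genes tested, 603 passed at an adjusted p under 0.05 (4.1% of those tested), 458 of them higher (3.12%) and 145 lower (0.986%) in KAT2AB_KD cells. Genes of the cornified envelope, antimicrobial and protease-inhibitor genes of the stressed epidermis and matrix metalloproteases were among those higher, and vimentin among those lower. The median log2 fold change of all genes was 0.02. Leaving out 1 library changed the size of the set: 291 genes passed without KAT2AB_KD Subconfluent library 1 (234 higher and 57 lower), 671 without KAT2AB_KD Confluent library 2, and 342 to 409 without each of the other 6 in turn. The gene lists used below are described by counts and medians beside these values for all genes.

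**Figure D1:**
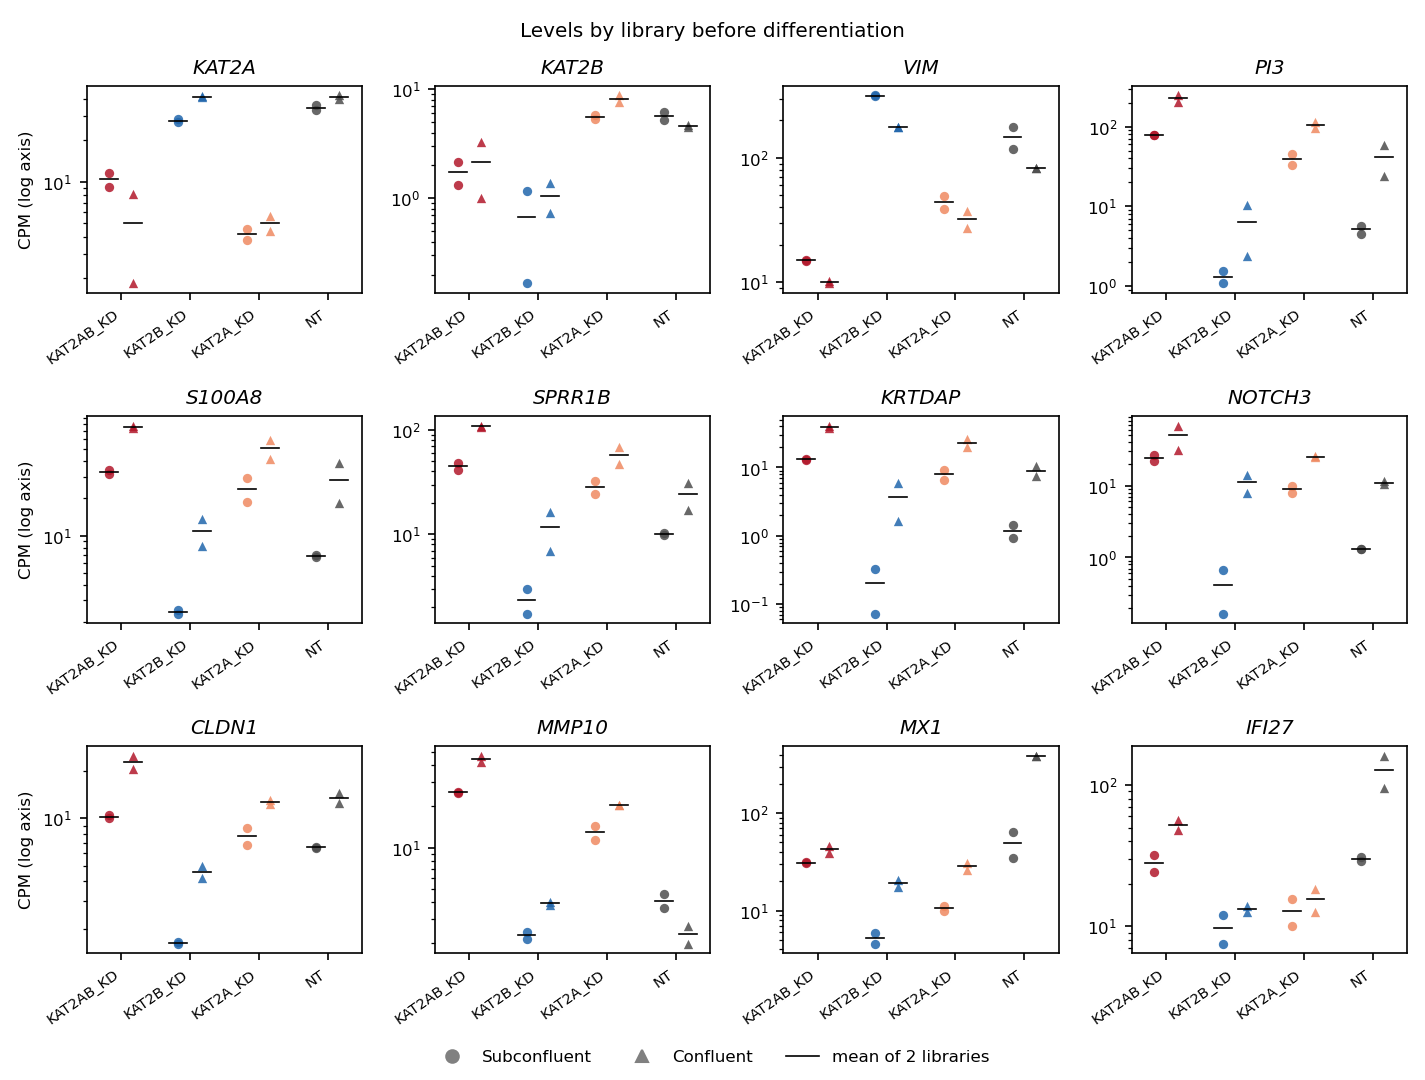
Levels of 12 genes in the 16 Subconfluent and Confluent libraries, in CPM on a log axis, with genotype on the horizontal axis, circles for Subconfluent, triangles for Confluent and a line at the mean of 2 libraries. VIM sits between 9.81 and 15.1 CPM in KAT2AB_KD libraries, below every library of the other genotypes, while PI3 and SPRR1B are higher in all 4 KAT2AB_KD libraries than in any KAT2B_KD library.

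The small proline-rich (SPRR) and late cornified envelope (LCE) genes, which lie together on chromosome 1 and encode envelope precursors, were mostly higher where they could be tested. Of 25 members 13 could be tested, and 11 of the 13 were higher in KAT2AB_KD cells and 0 lower, with a median log2 fold change of 3.06. The background share of higher genes was 3.12%. The other 12 members had too few reads. Summed over the list, the level was 104 to 252 CPM in KAT2AB_KD libraries, against 5.90 to 42.7 CPM in KAT2B_KD libraries, with no overlap.

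SPRR1B was at 41.4 and 47.98 CPM at Subconfluent and 110.0 and 106 CPM at Confluent in KAT2AB_KD cells, against 1.75 and 3.003 CPM at Subconfluent and 6.97 and 16.4 CPM at Confluent in KAT2B_KD cells. Both KAT2AB_KD stages lay above both KAT2B_KD stages, with Confluent above Subconfluent in each genotype. Its log2 fold change was 3.66 ± 0.29 (SE) (edgeR adjusted p = 1.59e-05). SPRR1A, its neighbour, was at 28.3 and 33.4 CPM at Subconfluent and 72.8 and 64.1 CPM at Confluent in KAT2AB_KD cells, against 0.582 and 2.05 CPM at Subconfluent and 5.98 and 10.6 CPM at Confluent in KAT2B_KD cells. It changed by 3.66 ± 0.34 (SE) on the log2 scale (edgeR adjusted p = 4.3e-05). SPRR3, which is used in the envelopes of internal squamous epithelia, was at 7.71 and 8.27 CPM at Subconfluent and 13.5 and 12.1 CPM at Confluent in KAT2AB_KD cells, against 0.166 and 0.366 CPM at Subconfluent and 0.0820 and 2.23 CPM at Confluent in KAT2B_KD cells. The 2 groups did not overlap, and the log2 fold change was 4.06 ± 0.53 (SE) (edgeR adjusted p = 0.000671).

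The SPRR2 genes A, B, D, E, F and G also rose, by 2.71 to 3.07 on the log2 scale, although they are near-identical copies between which reads may be shared. SPRR2G did not pass when any 1 of the 8 libraries was left out (edgeR adjusted p up to 0.156, without KAT2B_KD Confluent library 1). LCE3D was read 121 times in KAT2AB_KD libraries and 2 times in KAT2B_KD libraries, a ratio of 49.5 (95% counting interval 13.4 to 413). Its close copy LCE3E was read 106 times in KAT2AB_KD libraries and 2 times in KAT2B_KD libraries, a ratio of 43.4 (95% counting interval 11.7 to 363).

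Spinous genes, the first to be switched on when a keratinocyte leaves the basal layer, showed the same direction among the members that passed. Of 20 members tested, 12 were higher and 0 lower, with a median log2 fold change of 1.63, and also of 1.63 with CRCT1 at the bound given below. The count depended on single libraries: 5 members passed without KAT2B_KD Confluent library 1 and 7 without KAT2AB_KD Subconfluent library 2. KRTDAP, SBSN, DSG1, TGM1 and NOTCH3 passed whichever library was left out. KRTDAP, the keratinocyte differentiation-associated protein, was at 12.9 and 13.4 CPM at Subconfluent and 40.96 and 37.7 CPM at Confluent in KAT2AB_KD cells, against 0.332 and 0.0732 CPM at Subconfluent and 1.64 and 5.83 CPM at Confluent in KAT2B_KD cells. Every KAT2AB_KD library was above every KAT2B_KD library, by 4.13 ± 0.45 (SE) on the log2 scale (edgeR adjusted p = 0.000153).

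NOTCH3, a Notch receptor of the suprabasal layers, was at 21.8 and 26.2 CPM at Subconfluent and 68.2 and 31.6 CPM at Confluent in KAT2AB_KD cells, against 0.166 and 0.659 CPM at Subconfluent and 7.95 and 14.2 CPM at Confluent in KAT2B_KD cells. The groups did not overlap, and the KAT2B_KD libraries themselves differed widely between the stages. The log2 fold change over both stages was 3.36 ± 0.55 (SE) (edgeR adjusted p = 0.00354). TGM1, the membrane-bound transglutaminase that crosslinks envelope precursors, was at 32.3 and 22.5 CPM at Subconfluent and 75.3 and 56.5 CPM at Confluent in KAT2AB_KD cells, against 2.49 and 2.198 CPM at Subconfluent and 26.5 and 23.4 CPM at Confluent in KAT2B_KD cells. Here the KAT2AB_KD Subconfluent libraries lay at the level of the KAT2B_KD Confluent ones, so the groups separated only within a stage. TGM1 changed by 2.32 ± 0.36 (SE) (log2, edgeR adjusted p = 0.00209), and DSG1, a desmosomal cadherin of the upper layers, by 2.71 ± 0.44 (SE) (log2, edgeR adjusted p = 0.00311). DSG1 was at 4.85 and 3.99 CPM at Subconfluent and 35.6 and 13.8 CPM at Confluent in KAT2AB_KD cells, against 0.249 and 0.293 CPM at Subconfluent and 2.87 and 7.96 CPM at Confluent in KAT2B_KD cells, so that Confluent KAT2B_KD library 2 was above both Subconfluent KAT2AB_KD libraries.

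The other 7 spinous members passed with all 8 libraries but not in every set of 7. Involucrin (IVL), an early envelope precursor, was at 1.18 and 0.910 CPM at Subconfluent and 2.66 and 2.69 CPM at Confluent in KAT2AB_KD cells, against 0.332 and 0.513 CPM at Subconfluent and 0.164 and 0.212 CPM at Confluent in KAT2B_KD cells. It passed over all 8 libraries (2.42 on the log2 scale, edgeR adjusted p = 0.0358) and in 1 of the 8 sets of 7, with an adjusted p of up to 0.135 without KAT2B_KD Confluent library 1. DSC1, FABP5 and LGALS7B passed in 1, 1 and 3 of these sets, with adjusted p up to 0.165 (without KAT2AB_KD Confluent library 1), 0.176 and 0.125 (both without KAT2B_KD Confluent library 1). LGALS7B may share reads with its copy LGALS7. CALML5 and DSC2 were lost only without KAT2B_KD Confluent library 1 (edgeR adjusted p = 0.0562 and 0.0524). CRCT1 was read 58 times in KAT2AB_KD cells and 0 times in KAT2B_KD cells, at least 15.8-fold higher with the KAT2B_KD libraries together set at 3 counts. It passed in 6 of the 8 sets (adjusted p up to 0.061, without KAT2AB_KD Subconfluent library 2).

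The keratins of the spinous layer did not pass. KRT1 was at 291 and 278 CPM at Subconfluent and 412 and 447 CPM at Confluent in KAT2AB_KD cells, against 324 and 272 CPM at Subconfluent and 473 and 417 CPM at Confluent in KAT2B_KD cells. The ranges overlapped, with a log2 fold change of −0.05 ± 0.13 (SE) (edgeR adjusted p = 0.912). KRT10, its partner in the filament, was at 292 and 248 CPM at Subconfluent and 461 and 438 CPM at Confluent in KAT2AB_KD cells, against 189 and 172 CPM at Subconfluent and 415 and 362 CPM at Confluent in KAT2B_KD cells, a difference of 0.41 ± 0.14 (SE) that did not pass (edgeR adjusted p = 0.145). None of the 22 basal keratinocyte and adhesion genes tested passed in either direction (0 of 22), and their median was −0.13. By edgeR 6 of the 22 had an unadjusted p under 0.05, as had 2430 of all 14700 genes. With DESeq2 1 of them was lower, in the fit of all 24 libraries 1 was higher, and with no filter on low counts 1 was higher and 1 lower.

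Granular-layer genes were read rarely at these stages, and 11 of 23 could be tested. Of these 4 were higher and 0 lower, with a median of 1.91 (2.95 without KAT2AB_KD Confluent library 2). Filaggrin (FLG), which bundles keratin in the granular layer, was at 4.33 and 6.51 CPM at Subconfluent and 26.4 and 11.6 CPM at Confluent in KAT2AB_KD cells, against 0 and 1.76 CPM at Subconfluent and 0.738 and 3.08 CPM at Confluent in KAT2B_KD cells. KAT2AB_KD was higher at each stage, by 3.03 ± 0.58 (SE) over both (log2, edgeR adjusted p = 0.00946), but did not pass with DESeq2 (adjusted p = 0.0678). SPINK5, the inhibitor of the proteases that shed cornified cells, was at 3.53 and 3.64 CPM at Subconfluent and 14.5 and 8.21 CPM at Confluent in KAT2AB_KD cells, against 0.0831 and 1.099 CPM at Subconfluent and 0.410 and 1.06 CPM at Confluent in KAT2B_KD cells. It rose by 3.32 ± 0.51 (SE) (log2, edgeR adjusted p = 0.0023) and the groups did not overlap. The protease ASPRV1, which cuts profilaggrin, was read 114 times in KAT2AB_KD libraries and 1 time in KAT2B_KD libraries, a ratio of 93.3 (95% counting interval 16.4 to 3720). TGM3, a transglutaminase of the later steps, changed by 4.03 ± 0.76 (SE) (log2, edgeR adjusted p = 0.00884) and did not pass without KAT2AB_KD Subconfluent library 1 (edgeR adjusted p = 0.0651).

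Of 19 tested genes of the lipid barrier and tight junctions, 7 were higher and 0 lower, with a median of 0.63. Claudin-1 (CLDN1), the main claudin of the epidermal tight junction, was at 10.4 and 10.1 CPM at Subconfluent and 24.8 and 20.6 CPM at Confluent in KAT2AB_KD cells, against 1.66 and 1.61 CPM at Subconfluent and 4.18 and 4.99 CPM at Confluent in KAT2B_KD cells. The lowest KAT2AB_KD library was above the highest KAT2B_KD library, and the log2 fold change was 2.47 ± 0.20 (SE) (edgeR adjusted p = 1.59e-05). CLDN4, another claudin, was at 4.04 and 3.99 CPM at Subconfluent and 6.21 and 5.45 CPM at Confluent in KAT2AB_KD cells, against 0.665 and 0.366 CPM at Subconfluent and 1.56 and 1.804 CPM at Confluent in KAT2B_KD cells, a rise of 2.31 ± 0.35 (SE) (log2, edgeR adjusted p = 0.0018). ABCA12, which loads lipid into lamellar granules, was at 25.9 and 17.2 CPM at Subconfluent and 50.3 and 29.5 CPM at Confluent in KAT2AB_KD cells, against 3.82 and 6.52 CPM at Subconfluent and 5.98 and 11.99 CPM at Confluent in KAT2B_KD cells, again with no overlap (2.12 ± 0.28 (SE), log2, edgeR adjusted p = 0.000669). SULT2B1, the cholesterol sulfotransferase, rose by 2.98 ± 0.48 (SE) (log2, edgeR adjusted p = 0.00297). The phospholipase PLA2G4F and SPTLC3, a subunit of serine palmitoyltransferase, were higher by 2.95 and 1.02 on the log2 scale, while the ceramide synthase CERS3 (0.63) passed in 1 of the 8 sets of 7 libraries (edgeR adjusted p up to 0.118, without KAT2AB_KD Subconfluent library 2).

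Of 23 tested transcription factors of epidermal differentiation, 5 were higher and 0 lower, and the median was 0.10 (−0.06 without KAT2AB_KD Confluent library 2). ZNF750, which promotes terminal differentiation, was at 3.53 and 2.38 CPM at Subconfluent and 11.1 and 10.1 CPM at Confluent in KAT2AB_KD cells, against 0.249 and 0.293 CPM at Subconfluent and 1.15 and 3.08 CPM at Confluent in KAT2B_KD cells. It was higher at each stage, by 2.71 ± 0.38 (SE) over both (log2, edgeR adjusted p = 0.00101). GRHL1, a Grainyhead-like factor that activates desmosomal genes, rose by 1.37 ± 0.26 (SE) (log2, edgeR adjusted p = 0.00819).

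HOPX and OVOL1 rose by 2.71 and 1.67 on the log2 scale. Without KAT2AB_KD Subconfluent library 1, HOPX had an edgeR adjusted p of 0.0546 and OVOL1 one of 0.0798, and 3 factors passed in place of 5. OVOL1 passed in 3 of the 8 sets of 7 libraries. GRHL3 (1.12, edgeR adjusted p = 0.0585), KLF4 (−0.34, edgeR adjusted p = 0.462) and the basal-layer factor TP63 (0.02, edgeR adjusted p = 0.965) did not pass over both stages. Of 18 Notch pathway genes tested, NOTCH3 alone passed, and the Notch target HES1 was at 22.6, 26.6, 31.1 and 32.4 CPM in KAT2AB_KD cells, against 27.1, 24.9, 39.6 and 40.3 CPM in KAT2B_KD cells. These HES1 ranges overlapped (log2 fold change −0.19, edgeR adjusted p = 0.549). A second Notch pathway gene passed with DESeq2, in the fit of all 24 libraries, with a replicate block, with no filter on low counts, and without KAT2B_KD Confluent library 2.

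Genes that the epidermis switches on under barrier stress included some of the largest rises. Of 26 tested, 9 were higher and 0 lower, and all 9 passed whichever library was left out. The median was 0.51, with 0.32 without KAT2AB_KD Confluent library 2, 0.85 without KAT2B_KD Confluent library 2 and 0.95 in the fit of all 24 libraries. PI3 (elafin), an inhibitor of neutrophil elastase that is crosslinked into the envelope, was at 78.2 and 77.9 CPM at Subconfluent and 204 and 246 CPM at Confluent in KAT2AB_KD cells, against 1.08 and 1.54 CPM at Subconfluent and 2.38 and 10.4 CPM at Confluent in KAT2B_KD cells. The lowest KAT2AB_KD library exceeded the highest KAT2B_KD library several fold, and the log2 fold change was 5.47 ± 0.36 (SE) (edgeR adjusted p = 6.08e-06). SLPI, a related protease inhibitor, was at 11.2 and 10.02 CPM at Subconfluent and 26.01 and 28.8 CPM at Confluent in KAT2AB_KD cells, against 0.332 and 0.0732 CPM at Subconfluent and 2.05 and 2.65 CPM at Confluent in KAT2B_KD cells. It rose by 4.17 ± 0.35 (SE) (log2, edgeR adjusted p = 2.08e-05), with no overlap.

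S100A7 (psoriasin), an antimicrobial S100 protein, was at 5.66 and 8.195 CPM at Subconfluent and 12.8 and 16.6 CPM at Confluent in KAT2AB_KD cells, against 0.249 and 0 CPM at Subconfluent and 0 and 0 CPM at Confluent in KAT2B_KD cells. It was read 627 times in the KAT2AB_KD libraries and 3 times in the KAT2B_KD libraries, all 3 of them in 1 Subconfluent library, a ratio of 171 (95% counting interval 58.2 to 831) (edgeR adjusted p = 1.59e-05). Its copy S100A7A was read 458 times in the KAT2AB_KD libraries and 3 times in the KAT2B_KD libraries, a ratio of 125 (95% counting interval 42.5 to 608), and reads may be shared between the pair. S100A8, a subunit of calprotectin, was at 31.5 and 33.7 CPM at Subconfluent and 74.2 and 77.6 CPM at Confluent in KAT2AB_KD cells, against 2.49 and 2.34 CPM at Subconfluent and 8.28 and 13.6 CPM at Confluent in KAT2B_KD cells. No libraries overlapped, and the rise was 3.23 ± 0.23 (SE) (log2, edgeR adjusted p = 6.97e-06). Its partner S100A9 rose by 2.79 ± 0.24 (SE) (log2, edgeR adjusted p = 2.71e-05).

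SERPINB3, a squamous-cell serpin, was at 19.2 and 20.3 CPM at Subconfluent and 45.8 and 52.7 CPM at Confluent in KAT2AB_KD cells, against 3.99 and 2.05 CPM at Subconfluent and 9.67 and 9.76 CPM at Confluent in KAT2B_KD cells. Its log2 fold change was 2.53 ± 0.20 (SE) (edgeR adjusted p = 1.59e-05), and that of its near-identical copy SERPINB4 was 2.52 ± 0.21 (SE). IL1RN, the antagonist of the interleukin-1 receptor, rose by 1.99 ± 0.19 (SE) (log2, edgeR adjusted p = 5.67e-05), and the cytokine IL36G by 3.29 ± 0.61 (SE) (log2, edgeR adjusted p = 0.00775). By contrast IL1B, the cytokine that IL1RN opposes, was at 93.5, 94.5, 53.96 and 63.9 CPM in KAT2AB_KD cells, against 136, 87.8, 48.9 and 48.1 CPM in KAT2B_KD cells, with overlapping ranges (0.03, log2, edgeR adjusted p = 0.962). The stress keratins KRT6A (0.01, edgeR adjusted p = 0.988) and KRT16 (0.04, edgeR adjusted p = 0.949) did not pass either.

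Matrix metalloproteases, which degrade extracellular matrix, were higher in part. Of 22 tested proteases and inhibitors, 6 were higher and 1 lower, with a median of 0.17. MMP10 (stromelysin-2) was at 25.1 and 25.4 CPM at Subconfluent and 42.4 and 46.7 CPM at Confluent in KAT2AB_KD cells, against 2.16 and 2.42 CPM at Subconfluent and 4.02 and 3.82 CPM at Confluent in KAT2B_KD cells. The 4 KAT2AB_KD libraries were all above the 4 KAT2B_KD libraries, by 3.49 ± 0.17 (SE) on the log2 scale (edgeR adjusted p = 1.91e-07). MMP3 (stromelysin-1) was at 7.495 and 8.05 CPM at Subconfluent and 13.9 and 10.97 CPM at Confluent in KAT2AB_KD cells, against 0.416 and 0.659 CPM at Subconfluent and 1.23 and 0.849 CPM at Confluent in KAT2B_KD cells, a rise of 3.69 ± 0.27 (SE) (log2, edgeR adjusted p = 8.08e-06). MMP1, the interstitial collagenase, was at 22.6 and 16.6 CPM at Subconfluent and 49.6 and 60.9 CPM at Confluent in KAT2AB_KD cells, against 2.49 and 2.05 CPM at Subconfluent and 10.5 and 12.4 CPM at Confluent in KAT2B_KD cells. It rose by 2.65 ± 0.22 (SE) (log2, edgeR adjusted p = 1.59e-05), without overlap.

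MMP13, another collagenase, rose by 2.95 ± 0.41 (SE) (log2, edgeR adjusted p = 0.00103) and the inhibitor TIMP2 by 1.23 ± 0.16 (SE) (log2, edgeR adjusted p = 0.000655). MMP2, a gelatinase, was higher by 0.79 on the log2 scale but passed in 1 of the 8 sets of 7 libraries (edgeR adjusted p up to 0.135, without KAT2AB_KD Subconfluent library 1). MMP9 (0.09, edgeR adjusted p = 0.934) and TIMP1 (−0.13, edgeR adjusted p = 0.717) did not pass. SERPINE2, a secreted serine protease inhibitor, was the member that fell, at 35.6 and 30.6 CPM at Subconfluent and 24.5 and 30.9 CPM at Confluent in KAT2AB_KD cells, against 87.3 and 76.8 CPM at Subconfluent and 59.4 and 66.7 CPM at Confluent in KAT2B_KD cells. The ranges did not overlap (−1.24 ± 0.14 (SE), log2, edgeR adjusted p = 0.000216). A second member was lower with DESeq2, in the fit of all 24 libraries, with no filter on low counts and without KAT2B_KD Subconfluent library 1.

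To set members of the SPRR, spinous and protease lists that rose side by side, the 250 bases before the start of a few of them are shown (RefSeq, GRCh38.p14, the strand of the gene, 5′ to 3′). These few were picked without a rule and do not stand for their lists. The windows were searched for TGANTCA, a form with any middle base of the letters that AP-1 (the FOS and JUN dimer) prefers. It reads the same on both strands up to the middle base. Capitals mark the matches. Coordinates are of GRCh38.p14 and the counts were made on another build, so they locate the windows only. SPRR1A, chr1:152983831-152984080, plus strand, has 1 match that begins 108 bases before the start. SPRR1B, chr1:153030953-153031202, plus strand, has 2, at 141 and 111 bases. KRTDAP, chr19:35490465-35490714, minus strand, has 1 at 82 bases, and MMP10, chr11:102780629-102780878, minus strand, has 1 at 67 bases. VIM, chr10:17227991-17228240, plus strand, whose fall is described next, is shown beside them and has 0 matches.
SPRR1A: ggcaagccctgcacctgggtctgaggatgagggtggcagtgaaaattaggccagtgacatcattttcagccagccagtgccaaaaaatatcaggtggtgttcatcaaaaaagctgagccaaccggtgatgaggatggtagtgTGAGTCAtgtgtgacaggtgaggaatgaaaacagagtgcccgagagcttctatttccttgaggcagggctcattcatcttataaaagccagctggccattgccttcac
SPRR1B: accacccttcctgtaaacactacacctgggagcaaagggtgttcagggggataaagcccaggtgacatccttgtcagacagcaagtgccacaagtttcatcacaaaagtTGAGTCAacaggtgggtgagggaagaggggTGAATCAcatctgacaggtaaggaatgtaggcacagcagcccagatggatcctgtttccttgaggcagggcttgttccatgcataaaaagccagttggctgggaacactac
KRTDAP: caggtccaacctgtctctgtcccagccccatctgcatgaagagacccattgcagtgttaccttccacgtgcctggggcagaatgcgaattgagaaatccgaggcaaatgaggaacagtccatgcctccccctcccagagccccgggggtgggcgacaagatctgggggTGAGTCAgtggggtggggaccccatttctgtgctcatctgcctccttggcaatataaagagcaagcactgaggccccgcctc
MMP10: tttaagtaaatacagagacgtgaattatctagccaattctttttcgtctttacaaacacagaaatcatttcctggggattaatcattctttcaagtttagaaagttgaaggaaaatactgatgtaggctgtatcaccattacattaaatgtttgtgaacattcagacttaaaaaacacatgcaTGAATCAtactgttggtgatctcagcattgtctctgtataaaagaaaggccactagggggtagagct
VIM: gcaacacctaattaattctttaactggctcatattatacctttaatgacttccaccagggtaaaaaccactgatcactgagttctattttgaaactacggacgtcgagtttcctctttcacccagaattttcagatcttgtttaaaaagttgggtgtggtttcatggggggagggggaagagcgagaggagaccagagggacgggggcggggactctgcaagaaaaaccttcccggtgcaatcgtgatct
Of 35116 windows of this length in RefSeq, 2308 (6.57%) hold TGANTCA. Counted by gene, it was in a window of 6 of the 22 SPRR and LCE genes of the RefSeq table (27.3%), 6 of 15 spinous genes (40%), 7 of 26 barrier stress genes (26.9%) and 3 of 14 metalloprotease and inhibitor genes (21.4%), against 2200 of all 27305 genes of that table (8.06%). Most genes of each of these lists held no match. Whether the members that rose held one more often than the others was not tested. A match is a stretch of letters and not a measured binding site.

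Among the genes that fell was vimentin. Vimentin (VIM), the intermediate filament of mesenchymal cells that cultured keratinocytes also make, was at 14.8 and 15.1 CPM at Subconfluent and 9.81 and 10.3 CPM at Confluent in KAT2AB_KD cells, against 318 and 312 CPM at Subconfluent and 176 and 176 CPM at Confluent in KAT2B_KD cells. The replicates lay close together and the genotypes far apart, with a log2 fold change of −4.25 ± 0.14 (SE) (edgeR adjusted p = 4.24e-09). VIM-AS1, transcribed from the opposite strand of the same locus, was at 1.102 and 2.52 CPM at Subconfluent and 1.18 and 1.61 CPM at Confluent in KAT2AB_KD cells, against 32.9 and 90.5 CPM at Subconfluent and 23.5 and 51.4 CPM at Confluent in KAT2B_KD cells (−4.91 ± 0.40 (SE), log2, edgeR adjusted p = 1.59e-05). The strand setting of the counting is not given in the sources used here, so reads of VIM and VIM-AS1 may be mixed.

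ANPEP, the membrane aminopeptidase N, was at 0.0735 and 0.490 CPM at Subconfluent and 0 and 0 CPM at Confluent in KAT2AB_KD cells, against 13.9 and 15.2 CPM at Subconfluent and 9.02 and 6.79 CPM at Confluent in KAT2B_KD cells. It was read 8 times in the 4 KAT2AB_KD libraries and 549 times in the 4 KAT2B_KD libraries (edgeR adjusted p = 1.59e-05). Desmin (DES), the intermediate filament of muscle, was at 0.220 and 0.280 CPM at Subconfluent and 0.355 and 0.230 CPM at Confluent in KAT2AB_KD cells, against 4.904 and 12.2 CPM at Subconfluent and 3.93 and 9.12 CPM at Confluent in KAT2B_KD cells. Its log2 fold change was −4.70 ± 0.47 (SE) (edgeR adjusted p = 6.94e-05), and the replicates of KAT2B_KD differed more than 2-fold. QPCT, glutaminyl cyclase, was at 0.0735 and 0.280 CPM at Subconfluent and 0.295 and 0.0767 CPM at Confluent in KAT2AB_KD cells, against 4.74 and 1.83 CPM at Subconfluent and 5.08 and 3.18 CPM at Confluent in KAT2B_KD cells (−4.22 ± 0.55 (SE), log2, edgeR adjusted p = 0.000692).

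Among genes with a mean log2 CPM of 1 or more and the same order of the genotypes at each stage, a further 7 made up the 12 lowest with KAT2A, VIM, VIM-AS1, ANPEP and DES. QPCT lay just below that level. FAM167A was at 2.42, 2.59, 0.946 and 1.15 CPM in KAT2AB_KD cells in the order given above, against 12.3, 14.4, 11.3 and 13.7 CPM in KAT2B_KD cells (−2.92 ± 0.27 (SE), log2, edgeR adjusted p = 4.04e-05). FAM171A1 was at 2.65, 2.24, 1.300 and 0.691 CPM in KAT2AB_KD cells, against 10.2, 10.5, 6.88 and 7.32 CPM in KAT2B_KD cells (−2.39 ± 0.27 (SE), log2, edgeR adjusted p = 0.000214). In both, every KAT2AB_KD library was below every KAT2B_KD library. Within each stage this order was required by the rule. The remaining 5 were LRRC61 (−4.50), FAM50A (−3.05), SCG5, a chaperone of secretory granules (−2.40), KCNIP3, a calcium-binding partner of potassium channels (−2.24), and ANO1, a calcium-activated chloride channel (−2.05), all as log2 fold changes with edgeR adjusted p of 0.000311 to 0.00487.

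The mesenchymal list as a whole did not fall. Of 24 tested members 3 were lower and 1 higher, and the median was −0.01. SNAI2 (Slug), a repressor of epithelial genes, was at 66.9 and 64.6 CPM at Subconfluent and 40.4 and 48.1 CPM at Confluent in KAT2AB_KD cells, against 148 and 118 CPM at Subconfluent and 91.8 and 84.6 CPM at Confluent in KAT2B_KD cells. Every KAT2AB_KD library was lower, with a log2 fold change of −0.99 ± 0.13 (SE) (edgeR adjusted p = 0.000886). LTBP2, a matrix protein, changed by −1.01 ± 0.21 (SE) (log2, edgeR adjusted p = 0.0189) and passed in 4 of the 8 sets of 7 libraries (adjusted p up to 0.0765, without KAT2B_KD Subconfluent library 2, where 2 members were higher and 2 lower). TAGLN (transgelin), an actin-binding protein of smooth muscle, went the other way, with 25.4 and 26.8 CPM at Subconfluent and 48.3 and 65.8 CPM at Confluent in KAT2AB_KD cells, against 2.33 and 3.08 CPM at Subconfluent and 15.2 and 12.6 CPM at Confluent in KAT2B_KD cells. It rose by 2.59 ± 0.25 (SE) (log2, edgeR adjusted p = 5.63e-05), and no libraries overlapped. Fibronectin (FN1) varied widely within groups and did not pass (−0.65, edgeR adjusted p = 0.3).

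By the same rule the highest 12 were S100A7, S100A7A, PI3, PLA2G4E, CXADRP2, SLPI, KRTDAP, SPRR3, BLNK, SBSN, CXADR and ARFGEF3. BLNK, an adaptor known from B cell signalling, was at 4.78 and 3.22 CPM at Subconfluent and 5.44 and 8.52 CPM at Confluent in KAT2AB_KD cells, against 0 and 0 CPM at Subconfluent and 0.901 and 0.743 CPM at Confluent in KAT2B_KD cells (4.02 ± 0.59 (SE), log2, edgeR adjusted p = 0.0015). CXADR, a cell adhesion protein that serves as a virus receptor, was at 6.25 and 6.93 CPM at Subconfluent and 15.01 and 12.2 CPM at Confluent in KAT2AB_KD cells, against 0.665 and 0.146 CPM at Subconfluent and 0.492 and 1.91 CPM at Confluent in KAT2B_KD cells (3.76 ± 0.40 (SE), log2, edgeR adjusted p = 0.000116). Reads of its pseudogene CXADRP2 (4.30) may be shared with it. PLA2G4E, a cytosolic phospholipase, was higher by 4.44, ARFGEF3 by 3.74 and SBSN (suprabasin) by 3.84 on the log2 scale. The more rarely read TGM3, ASPRV1, LCE3D and CRCT1 had higher fold changes than ARFGEF3 and fell under the level of the rule.

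Markers of other cell types were low. Fibroblast markers summed to 30.9 to 45.9 CPM in KAT2AB_KD libraries and 31.6 to 37.0 CPM in KAT2B_KD libraries. Immune markers summed to 21.6 to 30.3 CPM in KAT2AB_KD libraries and 20.7 to 26.7 CPM in KAT2B_KD libraries, with overlap. Melanocyte markers summed to 19.3 and 19.96 CPM at Subconfluent and 10.3 and 8.98 CPM at Confluent in KAT2AB_KD cells, against 7.98 and 12.1 CPM at Subconfluent and 7.13 and 7.11 CPM at Confluent in KAT2B_KD cells. Their sum was higher in KAT2AB_KD at each stage, as was that of fibroblast markers at Subconfluent, where it was 42.6 and 45.9 CPM in KAT2AB_KD cells, against 34.1 and 37.0 CPM in KAT2B_KD cells. The melanocyte rise was that of MITF, given below. With MITF left out the sums overlapped at Subconfluent and were lower in KAT2AB_KD at Confluent. COL1A1, also given below, made up most of the fibroblast gap at Subconfluent. CD3E, CD163, MS4A1 and CD207 had 0 reads in all 8 libraries, as had TYR, EDNRB, SLC45A2 and OCA2. Of the 13 markers of these 3 lists that could be tested, COL1A1 and MITF passed. COL1A1, a collagen chain of fibroblasts, was at 6.83 and 8.12 CPM at Subconfluent and 6.92 and 4.22 CPM at Confluent in KAT2AB_KD cells, against 1.25 and 1.39 CPM at Subconfluent and 3.196 and 3.501 CPM at Confluent in KAT2B_KD cells (1.58 ± 0.36 (SE), log2, edgeR adjusted p = 0.0277). It passed in 2 of the 8 sets of 7 libraries (adjusted p up to 0.0963, without KAT2B_KD Subconfluent library 2). MITF, the melanocyte transcription factor that other cells also express, was at 12.9 and 11 CPM at Subconfluent and 6.97 and 5.68 CPM at Confluent in KAT2AB_KD cells, against 3.91 and 2.42 CPM at Subconfluent and 2.29 and 2.55 CPM at Confluent in KAT2B_KD cells (1.69 ± 0.24 (SE), log2, edgeR adjusted p = 0.0014). The part of these markers in the other results was not tested. In bulk RNA, fewer cells of a type and less RNA per cell cannot be told apart, and the same holds for a rise in differentiation genes and a larger share of differentiating cells.

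**Figure D2:**
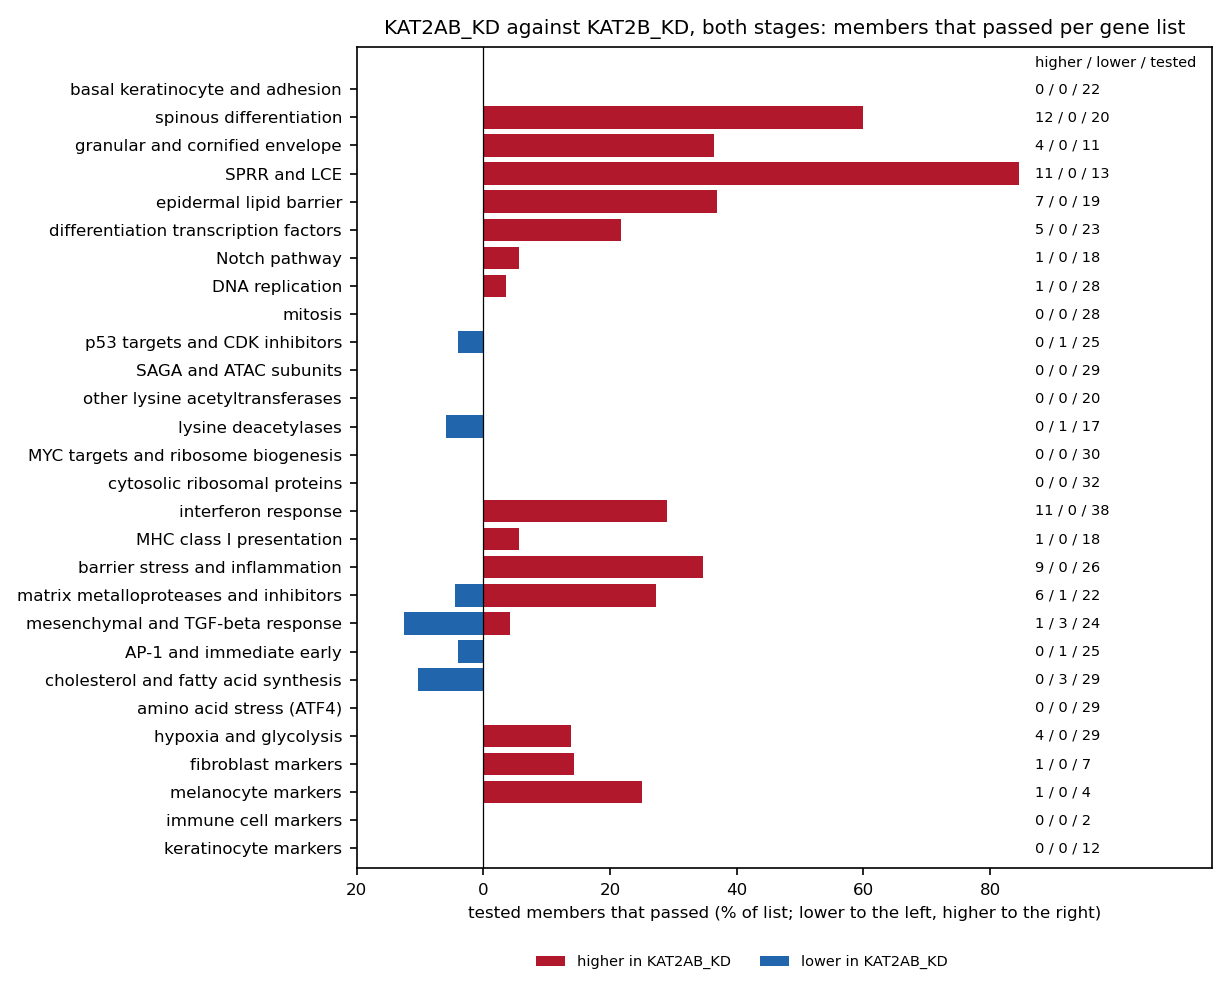
Share of the tested members of each gene list that passed in KAT2AB_KD against KAT2B_KD over both stages (horizontal axis, percent; lower to the left, higher to the right), with the counts of higher, lower and tested members at the right. The SPRR and LCE list has 11 of 13 members higher, the spinous list 12 of 20 and the basal list 0 of 22.

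Lists for growth and chromatin held few passing genes. In the SAGA and ATAC subunits, the complexes that hold KAT2A and KAT2B, 0 of 29 tested members passed by edgeR and 0 by DESeq2, 1 had an unadjusted p under 0.05 by edgeR, and the median was 0.04. Among 20 other lysine acetyltransferases 0 passed, with EP300 at 0.39 and CREBBP at 0.34 on the log2 scale (edgeR adjusted p = 0.436 and 0.493). Of these 20, 1 had an unadjusted p under 0.05 by edgeR, 0 passed with DESeq2, 1 passed with no filter on low counts and 1 without KAT2AB_KD Confluent library 2. Among 17 deacetylases HDAC9 was lower (−0.95 ± 0.19 (SE), log2, edgeR adjusted p = 0.0107), but not without KAT2AB_KD Subconfluent library 1 (0.0642) or Subconfluent library 2 of the same genotype. By edgeR 0 of 28 mitosis genes passed (2 at an unadjusted p under 0.05, 0 with DESeq2, 1 with no filter on low counts, median 0.05). Of 30 MYC target and ribosome biogenesis genes 0 passed by edgeR (3 at an unadjusted p under 0.05, 0 with DESeq2, 1 with no filter and 1 without KAT2AB_KD Confluent library 2, median −0.01). MCM2, part of the replicative helicase, was the member of 28 replication genes that passed (0.57 ± 0.13 (SE), log2, edgeR adjusted p = 0.0283), and it passed in none of the 8 sets of 7 libraries (adjusted p up to 0.148, without KAT2AB_KD Subconfluent library 1).

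All 32 tested cytosolic ribosomal protein genes had log2 fold changes below 0, between −0.62 and −0.05 with a median of −0.36, against 0.02 for all genes. By edgeR 0 of the 32 passed and 16 had an unadjusted p under 0.05, while 4 were lower with DESeq2, 6 with no filter on low counts and 1 without KAT2AB_KD Confluent library 2. The median lay between −0.50 and −0.27 in every alternative run. Summed over the list, KAT2AB_KD libraries had 26350 and 28340 CPM at Subconfluent and 27940 and 39730 CPM at Confluent. KAT2B_KD libraries had 41440 and 29900 CPM at Subconfluent and 51460 and 38250 CPM at Confluent. The sums overlapped at Confluent and varied widely between replicates. Whether these genes vary together from library to library was not tested.

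Smaller sets of metabolic genes passed in part. Of 29 tested cholesterol and fatty acid synthesis genes 3 were lower and 0 higher, with a median of −0.11. FDFT1 (squalene synthase) was at 574, 562, 394 and 505 CPM in KAT2AB_KD cells, against 988, 783, 935 and 789.6 CPM in KAT2B_KD cells (−0.78 ± 0.15 (SE), log2, edgeR adjusted p = 0.00991). FDFT1 was lower in every KAT2AB_KD library than in any KAT2B_KD library, and it was the member that passed whichever library was left out. SCD (stearoyl-CoA desaturase, −0.57) and SQLE (squalene epoxidase, −0.50) passed in 2 and 0 of the 8 sets of 7, with edgeR adjusted p up to 0.122 and 0.219 without KAT2AB_KD Subconfluent library 1. The list had 1 passing member without either Subconfluent library of KAT2AB_KD, without either Subconfluent library of KAT2B_KD and without KAT2B_KD Confluent library 2, and 6 with DESeq2.

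Of 29 hypoxia and glycolysis genes 4 were higher and 0 lower (median 0.13). CA12, a membrane carbonic anhydrase, was at 64.7, 57.99, 94.9 and 66.5 CPM in KAT2AB_KD cells, against 25.4, 29.7, 37.5 and 45.6 CPM in KAT2B_KD cells (1.07 ± 0.16 (SE), log2, edgeR adjusted p = 0.00173), with no overlap. EGLN3, a prolyl hydroxylase (1.80), HK2, a hexokinase (0.69), and PFKFB3, a regulator of glycolysis (0.72), each passed in 2 of the 8 sets of 7 libraries, with edgeR adjusted p up to 0.0911 (without KAT2B_KD Confluent library 1), 0.173 and 0.173 (both without KAT2AB_KD Subconfluent library 1). The list had 1 passing member without each, in turn, of KAT2AB_KD Subconfluent 1, KAT2B_KD Subconfluent 1, KAT2AB_KD Confluent 1, KAT2B_KD Confluent 1 and KAT2B_KD Subconfluent 2, and 2 without KAT2B_KD Confluent 2.

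Among 25 AP-1 and immediate early genes DUSP4, a phosphatase of MAP kinases, was lower, at 26.8, 31.2, 9.46 and 15.9 CPM in KAT2AB_KD cells, against 49.5, 52.7, 27.5 and 35.6 CPM in KAT2B_KD cells (−1.05 ± 0.19 (SE), log2, edgeR adjusted p = 0.00694). With these 8 libraries no other member passed by edgeR, 9 of the 25 had an unadjusted p under 0.05, and the list's median was −0.17. By DESeq2 1 member was higher and 1 lower, in the fit of all 24 libraries 1 was higher and 2 lower, and with no filter on low counts 1 was higher and 3 lower. Among 25 p53 targets and CDK inhibitors PLK3, a stress-responsive kinase, was lower (−0.83 ± 0.20 (SE), log2, edgeR adjusted p = 0.0392) and passed in 2 of the 8 sets of 7 libraries (adjusted p up to 0.11, without KAT2AB_KD Confluent library 1). Of 29 amino acid stress genes 0 passed by edgeR and 0 with DESeq2, 7 had an unadjusted p under 0.05 by edgeR, and the median was −0.09. With no filter on low counts 1 was higher, and 1 was lower without KAT2AB_KD Confluent library 2.

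Genes of the interferon response, which cells make when interferon or foreign nucleic acid is sensed, were higher in part. Of 38 tested members 11 were higher and 0 lower, the median log2 fold change was 0.79, and 36 of the 38 lay above 0. Summed over the list, the level was 705 to 931 CPM in KAT2AB_KD libraries, against 489 to 651 CPM in KAT2B_KD libraries. The count fell to 5 without KAT2AB_KD Subconfluent library 1 or KAT2B_KD Subconfluent library 2, to 6 without KAT2B_KD Subconfluent library 1 or KAT2AB_KD Subconfluent library 2, and to 7 without KAT2B_KD Confluent library 1. It was 20 with no filter on low counts.

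MX1, an antiviral GTPase, was at 31.6 and 30.5 CPM at Subconfluent and 38.6 and 46.4 CPM at Confluent in KAT2AB_KD cells, against 4.57 and 5.86 CPM at Subconfluent and 17.4 and 20.7 CPM at Confluent in KAT2B_KD cells. The groups did not overlap (1.84 ± 0.26 (SE), log2, edgeR adjusted p = 0.00126). IFI27 was at 31.7 and 24.2 CPM at Subconfluent and 48.2 and 56.8 CPM at Confluent in KAT2AB_KD cells, against 12.1 and 7.54 CPM at Subconfluent and 13.8 and 12.6 CPM at Confluent in KAT2B_KD cells (1.77 ± 0.19 (SE), log2, edgeR adjusted p = 0.000141). OAS1, which senses double-stranded RNA, was at 8.08 and 7.07 CPM at Subconfluent and 10.4 and 11.6 CPM at Confluent in KAT2AB_KD cells, against 1.83 and 1.76 CPM at Subconfluent and 3.44 and 5.94 CPM at Confluent in KAT2B_KD cells (1.64 ± 0.26 (SE), log2, edgeR adjusted p = 0.00276). In IFI27 and OAS1 too, every KAT2AB_KD library was above every KAT2B_KD library.

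LAMP3 (2.58, log2, edgeR adjusted p = 0.00752) and the RNA-binding protein IFIT1 (1.26, log2, edgeR adjusted p = 0.00902) also passed whichever library was left out. MX2, OAS2, OAS3, OASL and DDX58 passed over all 8 libraries, by 0.86 to 1.58 on the log2 scale, but in 1 to 5 of the 8 sets of 7. Their highest edgeR adjusted p without a library were 0.152, 0.0641, 0.198, 0.135 and 0.15 in that order, all without KAT2AB_KD Subconfluent library 1 but that of DDX58, which was without KAT2B_KD Confluent library 1. In MHC class I presentation, NLRC5, an activator of these genes, rose (1.38 ± 0.29 (SE), log2, edgeR adjusted p = 0.0159) but did not pass without KAT2AB_KD Subconfluent library 1 (0.0824) or KAT2B_KD Confluent library 1. No other of 18 members passed, and their median was 0.00.

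The 2 stages were then read separately, in 1 fit of the same 8 libraries. At Subconfluent 223 genes passed (1.52%), 193 higher and 30 lower, and at Confluent 108 (0.735%), 85 higher and 23 lower. The Confluent count fell to 21 without KAT2B_KD Confluent library 1 and to 25 without library 2 of that group, and rose to 123 without KAT2AB_KD Confluent library 2. The Subconfluent count fell to 66 without either KAT2AB_KD Subconfluent library, to 88 without KAT2B_KD Subconfluent library 1 and to 157 without library 2 of that group. The Confluent count was 74 without KAT2AB_KD Confluent library 1. Of the 193 genes higher at Subconfluent 187 had a positive value at Confluent and 70 passed there (36.3%), which is 82.4% of the 85 higher at Confluent. Of the 30 lower genes 29 were below 0 at Confluent and 17 passed (56.7% of the 30, 73.9% of the 23).

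VIM fell at both stages, with log2 fold changes of −4.37 at Subconfluent and −4.13 at Confluent (edgeR adjusted p = 3.55e-06 and 6.29e-06). MMP10 rose by 3.48 and 3.51 (edgeR adjusted p = 0.000158 and 0.000107) and PI3 by 5.90 and 5.18 (edgeR adjusted p = 0.000697 and 0.0013). NOTCH3 was higher by 5.81 at Subconfluent and 2.19 at Confluent, and OVOL1 by 2.66 and 1.12. NOTCH3 at Confluent and OVOL1 at Subconfluent each passed in 1 of the 4 sets without a library of that stage, with edgeR adjusted p up to 0.399 (without KAT2B_KD Confluent library 1) and 0.235 (without KAT2AB_KD Subconfluent library 1). In the test of the difference between the stages itself, 0 of the 14700 genes passed with edgeR (0%), while 857 had an unadjusted p under 0.05. With DESeq2 5 genes passed the adjusted threshold, and all 5 had a smaller effect at Confluent. They were HRNR, TGM1, NOTCH3, FGFR3 and AQP3, with log2 differences (Confluent minus Subconfluent) of −8.58, −2.16, −3.66, −1.99 and −2.54. HRNR, FGFR3 and AQP3 were chosen after their values were seen. The DESeq2 adjusted p of these 5 were 0.00144, 0.00505, 0.00179, 0.0226 and 0.0129, and their edgeR adjusted p was 0.841.

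**Figure D3:**
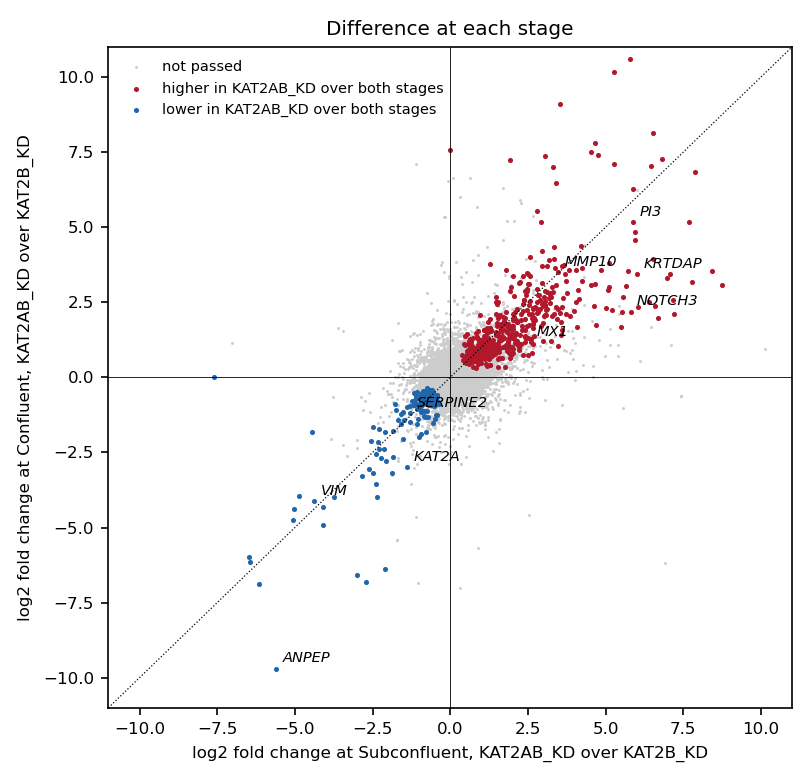
Log2 fold change of each tested gene, KAT2AB_KD over KAT2B_KD, at Subconfluent (horizontal) and Confluent (vertical), with genes that passed over both stages in red (higher) and blue (lower) and the dotted line at equal values. VIM lies near the line at −4.37 and −4.13, while NOTCH3 lies below it at 5.81 and 2.19.

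Loss of KAT2A in cells that keep KAT2B was taken from KAT2A_KD against NT, which shares no library with the comparison above. There 325 of 14412 genes passed (2.26%), 184 higher (1.28%) and 141 lower (0.978%). The count was 700 without NT Subconfluent library 1, 162 without KAT2A_KD Subconfluent library 1, and 169 to 233 without each of the other 6 in turn. KAT2A fell in it, with a log2 fold change of −3.04 (edgeR adjusted p = 2.42e-07). Of the 458 genes that were higher in KAT2AB_KD than in KAT2B_KD, 428 were tested in KAT2A_KD against NT, where 377 had the same sign, 102 passed in the same direction (23.8% of the 428) and 12 in the opposite one. Of the 145 lower genes 141 were tested, 129 had the same sign, 33 passed in the same direction (23.4%) and 0 in the opposite one. The shared genes were 56% of the 182 tested among the 184 higher in KAT2A_KD, and 24.6% of the 134 tested among the 141 lower. The 428 higher genes tested in both contrasts had a median log2 fold change of 1.51 in KAT2AB_KD against KAT2B_KD, by which they were chosen, and of 0.64 in KAT2A_KD against NT.

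**Figure D4:**
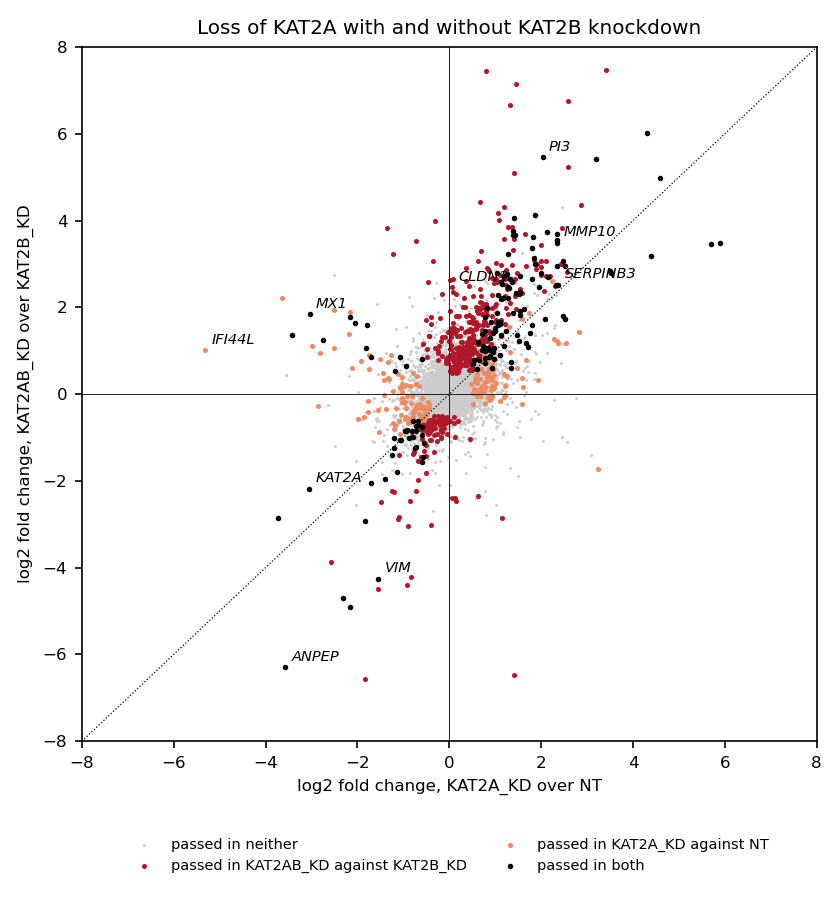
Log2 fold change of each gene in KAT2A_KD over NT (horizontal) and in KAT2AB_KD over KAT2B_KD (vertical), coloured by where it passed, with the dotted line at equal values. PI3 and VIM lie on the same side of 0 in both contrasts and farther out on the vertical axis, while MX1 lies at −3.04 on the horizontal axis and 1.84 on the vertical axis.

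Whether the effect of KAT2A loss depended on KAT2B was tested as the difference between the 2 contrasts over 16 libraries. Of 14971 genes 111 passed (0.741%), 92 with a higher value in the KAT2AB_KD against KAT2B_KD contrast (0.615%) and 19 with a lower one (0.127%). It fell to 67 without KAT2AB_KD Subconfluent library 1 or KAT2A_KD Confluent library 2, to 68 without KAT2A_KD Subconfluent library 1 and to 71 without NT Confluent library 2. SPRR and spinous genes passed in small numbers, 2 of 15 and 2 of 20 tested, barrier stress genes in 6 of 28 and metalloproteases in 3 of 22, all with a higher value beside KAT2B knockdown. Of the spinous genes 0 passed without KAT2A_KD Subconfluent library 1, NT Subconfluent library 1, KAT2A_KD Confluent library 2 or NT Confluent library 2, 2 without Confluent library 2 of KAT2AB_KD or of KAT2B_KD, and 1 without each of the other 10. Of the metalloproteases 0 passed without KAT2AB_KD Subconfluent library 1 or NT Confluent library 2, and 1 without KAT2B_KD Confluent library 1, either Subconfluent library of KAT2A_KD or KAT2A_KD Confluent library 2.

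PI3 was at 32.7 and 45.7 CPM at Subconfluent and 114.9 and 97.2 CPM at Confluent in KAT2A_KD cells, against 5.71 and 4.53 CPM at Subconfluent and 24.2 and 58.7 CPM at Confluent in NT cells. Its log2 fold change was 2.04 there (edgeR adjusted p = 0.00351), against 5.47 between KAT2AB_KD and KAT2B_KD, and the difference was 3.39 (edgeR adjusted p = 0.00268). Taken at 1 stage, that difference was 2.95 at Subconfluent (edgeR adjusted p = 0.248) and 3.83 at Confluent (edgeR adjusted p = 0.0119). KAT2B_KD cells were the lowest of the 4 genotypes at each stage. SPRR1B was at 24.4 and 32.7 CPM at Subconfluent and 68.1 and 47.3 CPM at Confluent in KAT2A_KD cells, against 9.77 and 10.3 CPM at Subconfluent and 16.99 and 31.2 CPM at Confluent in NT cells, with log2 fold changes of 1.38 there and 3.66 above, and a difference of 2.34 (edgeR adjusted p = 0.00495) that passed at neither stage alone. CLDN1 was at 6.74 and 8.74 CPM at Subconfluent and 12.2 and 12.99 CPM at Confluent in KAT2A_KD cells, against 6.51 and 6.61 CPM at Subconfluent and 14.4 and 12.5 CPM at Confluent in NT cells. It did not pass there (0.07, edgeR adjusted p = 0.904), and the difference of 2.41 did (edgeR adjusted p = 2.99e-05). KAT2B_KD cells had the lowest SPRR1B and CLDN1 of the 4 genotypes at each stage, and KAT2AB_KD cells the highest.

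VIM was at 38.8 and 49.4 CPM at Subconfluent and 37.4 and 27.6 CPM at Confluent in KAT2A_KD cells, against 117 and 177 CPM at Subconfluent and 83.4 and 83.1 CPM at Confluent in NT cells. It fell there (log2 fold change −1.55, edgeR adjusted p = 0.000187). The difference between the contrasts, −2.72, passed over both stages (edgeR adjusted p = 4.32e-06). It also passed at Subconfluent and Confluent alone (−2.66 and −2.78, edgeR adjusted p = 0.00111 and 0.000168). KAT2B_KD cells had the highest VIM of the 4 genotypes and KAT2AB_KD cells the lowest. MMP10 was at 14.4 and 11.3 CPM at Subconfluent and 20.3 and 20.4 CPM at Confluent in KAT2A_KD cells, against 4.56 and 3.59 CPM at Subconfluent and 1.98 and 2.67 CPM at Confluent in NT cells. It rose in both contrasts, by 2.35 there, with a difference of 1.09 (edgeR adjusted p = 0.0359). The difference passed in 2 of the 16 sets without 1 library, those without NT Confluent library 1 and NT Subconfluent library 2 (edgeR adjusted p up to 0.137, without NT Confluent library 2). SERPINB3 rose in both, by 2.38 in KAT2A_KD against NT and 2.53 in KAT2AB_KD against KAT2B_KD on the log2 scale. Its difference of 0.04 ± 0.31 (SE) did not pass (edgeR adjusted p = 0.998).

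The interferon response differed between the 2 contrasts. In KAT2A_KD against NT 34 of 40 tested members were lower and 0 higher, with a median of −1.47, while 11 of 38 were higher in KAT2AB_KD against KAT2B_KD. In the test of the difference 33 of 40 had a higher value beside KAT2B knockdown and 0 a lower one, with a median of 2.31. Summed over the list, KAT2A_KD libraries had 526 to 761 CPM, against 933 to 3691 CPM in NT libraries. All 4 NT libraries were above the 12 knockdown libraries, with the Confluent ones highest. MX1 was at 9.94 and 11.2 CPM at Subconfluent and 26.3 and 30.7 CPM at Confluent in KAT2A_KD cells, against 63.5 and 34.4 CPM at Subconfluent and 388 and 386 CPM at Confluent in NT cells, a log2 fold change of −3.04 (edgeR adjusted p = 0.000121) and a difference of 4.85 between the contrasts (edgeR adjusted p = 6.67e-08). That difference was 4.78 at Subconfluent and 4.92 at Confluent.

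IFIT1 was at 4.48 and 4.69 CPM at Subconfluent and 7.68 and 11.3 CPM at Confluent in KAT2AB_KD cells, against 1.58 and 1.91 CPM at Subconfluent and 3.93 and 4.77 CPM at Confluent in KAT2B_KD cells, and at 2.93 and 3.72 CPM at Subconfluent and 6.35 and 7.94 CPM at Confluent in KAT2A_KD cells, against 13.5 and 8.97 CPM at Subconfluent and 74.02 and 86.9 CPM at Confluent in NT cells. The NT Confluent libraries were the highest, and the difference between the contrasts was 3.89 (edgeR adjusted p = 3.73e-06). RSAD2, IFI44L and BST2, 3 antiviral genes, had the highest differences of all genes named by rule, at 9.18, 6.46 and 6.07 on the log2 scale (edgeR adjusted p = 0.000852, 0.00175 and 0.00209). BST2 was at 1.102, 0.210, 1.12 and 1.38 CPM in KAT2AB_KD cells, against 0.0831, 0, 0.328 and 0.530 CPM in KAT2B_KD cells, and at 0.340, 0.279, 0.881 and 0.120 CPM in KAT2A_KD cells, against 1.81, 1.605, 10.7 and 12.8 CPM in NT cells. It did not pass between KAT2AB_KD and KAT2B_KD (2.22, edgeR adjusted p = 0.141), and its difference was 6.16 at Subconfluent alone (edgeR adjusted p = 0.133) and 5.98 at Confluent alone (edgeR adjusted p = 0.0172). With the contrast taken at 1 stage, 9 of the 40 interferon genes passed at Subconfluent (median 1.61) and 26 at Confluent (median 2.83). Of all 14971 genes 16 passed at Subconfluent and 50 at Confluent. Whether the stages differed in this contrast was not tested.

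The 250 bases before IFIT1 (chr10:89392373-89392622, plus strand) and BST2 (chr19:17405631-17405880, minus strand) are shown as the windows of 2 genes of this group (RefSeq, GRCh38.p14). They were searched on both strands for GAAANNGAAA, the core of the interferon-stimulated response element, and capitals mark the matches. IFIT1 has 2 on the opposite strand, which begin 116 and 103 bases before the start, and BST2 has 2 that overlap, at 130 and 124 bases.
IFIT1: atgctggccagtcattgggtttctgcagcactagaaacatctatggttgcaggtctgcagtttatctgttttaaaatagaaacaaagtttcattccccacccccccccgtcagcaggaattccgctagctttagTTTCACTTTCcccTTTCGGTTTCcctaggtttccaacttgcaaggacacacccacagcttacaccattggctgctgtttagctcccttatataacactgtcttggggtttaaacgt
BST2: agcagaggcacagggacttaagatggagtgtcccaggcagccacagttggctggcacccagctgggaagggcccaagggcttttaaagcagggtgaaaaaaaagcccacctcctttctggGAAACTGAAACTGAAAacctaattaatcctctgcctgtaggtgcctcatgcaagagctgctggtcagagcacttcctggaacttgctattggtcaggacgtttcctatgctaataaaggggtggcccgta
The letters are in a window of 21 of the 29 interferon genes of the RefSeq table (72.4%), against 1014 of all 27305 genes of that table (3.71%) and 1061 of its 35116 windows (3.02%). They are in 1 of 22 SPRR and LCE genes (4.55%) and 1 of 26 barrier stress genes (3.85%). This describes the sequence and measures no binding.

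**Figure D5:**
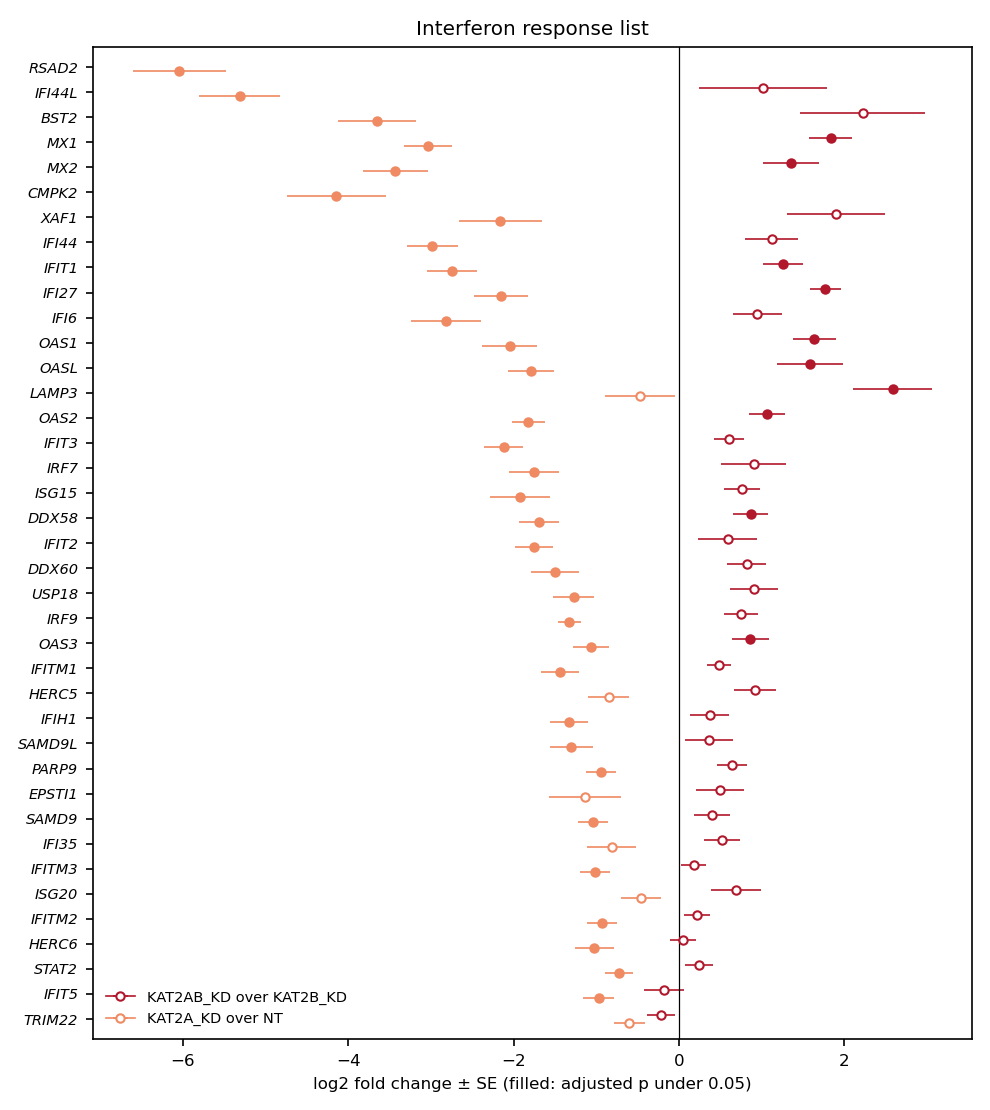
Log2 fold change ± SE (horizontal axis) of 39 of the 40 interferon response genes tested in the difference, in KAT2AB_KD over KAT2B_KD (red) and KAT2A_KD over NT (orange), with filled points for an adjusted p under 0.05. All KAT2A_KD points lie below 0, and 35 of the 37 KAT2AB_KD points lie above 0, while RSAD2 and CMPK2 were not tested in KAT2AB_KD against KAT2B_KD.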

How the data were processed

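PolyA-selected RNA of nTERT-1 cells was made into directional single-end libraries, per the labels. The deposited table holds read counts per gene. The submitters' processing notes name FastQC, Bowtie2, featureCounts, DESeq2 and hg19, with versions, annotation, strand setting and handling of multi-mapping reads not given in the sources used here. A second deposited table holds a signal, which equals the authors' counts divided by 1 size factor per library (largest relative deviation 5.0e-07), and served only to restore 26 of 28 gene symbols turned into dates. Of the columns of counts, 1 fitted no sample and stayed out.

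Counts were fitted in R 4.3.3 with edgeR 4.0.16 (filterByExpr, TMM, glmQLFit, glmQLFTest, Benjamini-Hochberg over all genes tested, threshold 0.05) over the 8 libraries with stage as covariate. The common biological coefficient of variation was 0.215, with 5 residual degrees of freedom. Single stages used 1 mean per group, and the dependence on KAT2B used 16 libraries with 1 mean per group. DESeq2 1.42.0, RLE scaling, no filter on low counts, all 24 libraries, a replicate block and leaving out each library were the alternatives. The code was tested on simulated data. Where a group held 0 reads, a fold is a bound against 3 counts over the group, and with 1 to 3 reads a ratio with its 95% counting interval is given; both cover counting error only.

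A deposited sample sheet numbers the 2 libraries of each group alike, as 2 and 3 in place of the 1 and 2 used here. Deviations of same-numbered libraries correlated over 0.1 in 4 of 6 pairs of the 4 groups (−0.11 to 0.31). This does not settle whether the numbers pair libraries. The main fits did not use them, and the replicate block was run as an alternative.

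Named genes were KAT2A, KAT2B, the passing genes with the 12 highest and 12 lowest log2 fold changes (mean log2 CPM 1 or more, same order of the genotypes at each stage), up to 4 passing members of each list by lowest p, further list members given with their outcome, and the 4 highest and 4 lowest passing differences between the contrasts. Some list members are counted but not reported by name here. The compared groups and the lists were chosen with earlier results of these data known. Promoter windows came from RefSeq (GRCh38.p14), matched by symbol.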

Additional observations from a re-analysis of the deposited data

Results flagged for a closer look

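For 32 of the 76 genes named by rule the difference between the 2 contrasts passed. All 4 genotypes enter this difference, and which of them it rests on was not tested. The edgeR test was of (KAT2AB_KD minus KAT2B_KD) minus (KAT2A_KD minus NT), with adjusted p between 6.67e-08 and 0.0445. Over all genes 0.741% passed, 0.615% with a higher value and 0.127% with a lower one. The 4 highest and 4 lowest differences were named for passing this very test. The others, KAT2A and KAT2B apart, were named for passing between KAT2AB_KD and KAT2B_KD, which is part of the same contrast. Their choice was therefore not independent of this test. Of the 32, 25 had a higher value beside KAT2B knockdown and 7 a lower one, and all values here are log2 differences. When each of the 16 libraries was left out in turn, 18 of the 32 passed every time. Taken at 1 stage, 6 passed at both stages (SLPI, VIM, CLDN1, IFI27, MX1 and OAS1), 2 at Subconfluent alone (MMP10 and TAGLN), 9 at Confluent alone and 15 at neither; whether the stages differed was not tested.

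In genes of the epidermal surface the difference was 6.05 for S100A7, 5.74 for S100A7A, 3.39 for PI3, 3.49 for SLPI and 1.97 for S100A8. It was 2.34 for SPRR1B, 2.34 for SPRR1A, 2.69 for KRTDAP and 2.01 for NOTCH3. The claudins CLDN1 and CLDN4 had 2.41 and 2.5. The proteases MMP10 and MMP1 had 1.09 and 1.37, and TAGLN had 1.56. PLA2G4E, BLNK, CXADR and CXADRP2 had 5.35, 4.63, 2.42 and 3.24. The value of S100A7 was 1.89 at Subconfluent (edgeR adjusted p = 0.878) and 10.21 at Confluent (edgeR adjusted p = 0.00131), and it did not pass without NT Subconfluent library 2 (edgeR adjusted p = 0.326). S100A7A passed in 5 of the 16 sets without 1 library and had 1.56 at Subconfluent (edgeR adjusted p = 0.93). MMP10 passed in 2 of these sets, NOTCH3 in 3, CXADR in 4, BLNK in 7, MMP1 in 10, KRTDAP in 11 and PLA2G4E in 12, with edgeR adjusted p up to 0.137 (without NT Confluent library 2), 0.137 (without KAT2B_KD Subconfluent library 1), 0.124 (without NT Subconfluent library 1), 0.153 (without NT Subconfluent library 2), 0.0596 (without KAT2AB_KD Subconfluent library 1), 0.112 and 0.184 (both without NT Subconfluent library 1) in that order.

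Interferon response genes had 9.18 (RSAD2), 6.46 (IFI44L), 6.07 (BST2), 4.85 (MX1), 3.88 (IFI27), 3.65 (OAS1) and 3.06 (LAMP3). RSAD2 rests on 31 reads in KAT2AB_KD libraries and 10 in KAT2B_KD libraries before differentiation. Summed over the interferon list, NT libraries were highest, at 933 to 3691 CPM. The sums were 705 to 931 CPM in KAT2AB_KD, 489 to 651 CPM in KAT2B_KD and 526 to 761 CPM in KAT2A_KD libraries.

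Lower values were −2.72 for VIM, −3.98 for ANPEP, −2.19 for FAM50A, −2.6 for SCG5, −2.56 for FAM171A1, −3.39 for QPCT and −4.65 for RMRP, an RNA that is not normally polyadenylated. ANPEP passed in 5 of the 16 sets without 1 library, QPCT in 7, FAM50A and RMRP in 9 each and SCG5 in 14, with edgeR adjusted p up to 0.162 (without KAT2A_KD Confluent library 1), 0.101 (without KAT2AB_KD Subconfluent library 1), 0.0668 (without KAT2B_KD Confluent library 1), 0.0868 (without KAT2B_KD Subconfluent library 1) and 0.0527 (without NT Confluent library 2) in that order. Taken at 1 stage, ANPEP, QPCT, FAM50A and SCG5 passed at neither stage, and RMRP passed at Confluent. RMRP ranged from 2.31 to 2.96 CPM in KAT2AB_KD libraries, 1.83 to 26.9 CPM in KAT2B_KD libraries, 3.63 to 134 CPM in KAT2A_KD libraries and 1.74 to 5.95 CPM in NT libraries.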

How the results depend on the processing

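No called gene reversed among the 1159 values computed under the alternatives, which cover the named genes in the comparison over both stages and 8 genes in the difference between the contrasts. Most of these genes were chosen for passing, and the alternatives reused nearly all the same libraries, so a reversal was unlikely from the outset. Of the 1159 values, 1051 stayed on their side of the threshold, 105 lost and 3 gained a call. In all 8 leave-one-out fits 58 of the 71 called named genes passed. Of genes given in the text, MCM2, SCD, PFKFB3, OAS3 and MMP2 lost their call in the fit of all 24 libraries, SQLE, HK2 and OAS3 with a replicate block, OAS3 with RLE scaling and FLG with DESeq2. Of 18 lists with a median within 0.2 of 0, 7 had medians of both signs among the fits without 1 library, such as −0.08 (without KAT2AB_KD Confluent library 2) and 0.13 (without KAT2B_KD Confluent library 2) for mitosis, with shifts of up to 0.16. The median of the lipid barrier list was 0.63, against 0.98 with no filter and 0.97 with DESeq2. The causes were not tested. Counts of passing genes moved more. Against the 603 genes (458 higher, 145 lower) of the comparison over both stages, no filter on low counts gave 1135 (800 and 335), DESeq2 gave 857, with 285 lower, and leaving out 1 library gave 291 to 671 (234 to 492 higher, 57 to 179 lower). At Subconfluent (223), no filter gave 698, DESeq2 403, all 24 libraries 411 and leaving out 1 library 66 to 157. At Confluent (108) these gave 448, 246, 254 and 21 to 123. For the difference between stages (0) no filter gave 41, DESeq2 5 and leaving out 1 library 0. For KAT2A_KD against NT (325) no filter gave 725 and leaving out 1 library 162 (without KAT2A_KD Subconfluent library 1) to 700 (without NT Subconfluent library 1). For the difference between the contrasts (111, 92 higher and 19 lower) no filter gave 262 (194 and 68), DESeq2 189, with 51 lower, and leaving out 1 library 67 to 119 (57 to 102 higher, 9 to 21 lower). Taken at Subconfluent alone, a choice made after the data were seen, it gave 16 (15 and 1), and at Confluent alone 50 (44 and 6). A replicate block gave 550 genes over both stages (425 higher, 125 lower), 203 at Subconfluent, 89 at Confluent, 350 for KAT2A_KD against NT and 126 for the difference between the contrasts. With 2 libraries per group and counts near the floor in KAT2B_KD cells, fold changes of rarely read genes such as S100A7 are imprecise.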

Other observations

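GRHL3, a Grainyhead-like factor of the barrier, was chosen after its values were seen. It was at 4.26 and 3.78 CPM at Subconfluent and 19.7 and 14.1 CPM at Confluent in KAT2AB_KD cells, against 0.665 and 1.25 CPM and then 11.3 and 11.99 CPM in KAT2B_KD cells. It passed at Subconfluent (log2 fold change 2.07, edgeR adjusted p = 0.021; in 1 of the 4 sets without a library of that stage, up to 0.162 without KAT2B_KD Subconfluent library 1) and not at Confluent (0.55, edgeR adjusted p = 0.546), and no difference between the stages was shown by the edgeR test across all genes. TIMP2 was also chosen in this way. It changed by −0.01 on the log2 scale in KAT2A_KD against NT (edgeR adjusted p = 0.988), against 1.23 in KAT2AB_KD against KAT2B_KD, and the difference between the contrasts passed (1.23, edgeR adjusted p = 0.0157), in 13 of the 16 sets without 1 library (edgeR adjusted p up to 0.0561, without KAT2AB_KD Subconfluent library 1).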
